A study of Heterocephalus glaber with 2 samples.

Results

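Adipogenic C/EBPs and adipocyte effectors in naked mole-rat (NMR) skin fibroblasts (NSFs) were taken as the entries whose gene symbol is *Cebpa*, *Cebpb*, *Cebpd*, *Cebpg*, *Fabp4*, *Lpl*, *Adipoq*, *Adipor1*, *Adipor2* or *Lep*. Of these 10 symbols, 9 had an entry among the 37520 genes listed, and *Fabp4* had none. RNA was sequenced from 1 shControl library and 1 *shβ-catenin* library, both from primary fibroblasts of adult NMRs that were kept at low oxygen, transduced with a lentiviral vector and selected with puromycin. The shControl cells carried the empty vector, not a non-targeting hairpin, and the *shβ-catenin* cells carried 1 of the hairpins against *β-catenin*, so an effect of that hairpin on other transcripts cannot be told apart from that of β-catenin loss. The study made these libraries to learn how β-catenin acts on the cholesterol-rich lipid droplets of NSFs. Since each condition is a single library, no replicate error is known and no difference was tested.

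CCAAT/enhancer-binding proteins (C/EBPs) are basic leucine zipper transcription factors that bind DNA as dimers. In mouse preadipocytes, C/EBPβ and C/EBPδ appear first after an adipogenic stimulus and induce C/EBPα and the nuclear receptor PPARγ, which keep each other on and switch on adipocyte genes such as *Fabp4*, *Lpl*, *Adipoq* and *Lep*. Wnt signaling through β-catenin holds mouse preadipocytes undifferentiated by keeping C/EBPα and PPARγ low, and *Wnt10b* is the ligand best known for this. In skin fibroblasts, C/EBPβ and C/EBPδ are also factors of the inflammatory response.

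Levels are given in FPKM, the number of fragments scaled to the exon length of the gene and to all mapped fragments of the library, so that genes of different length can be compared. Control cells below are those of the shControl library. Log2 fold changes are those of *shβ-catenin* over shControl after a pseudocount of 0.1 FPKM, which understates the change of low genes, and plain folds are ratios of the listed values. *Ctnnb1* (β-catenin), the target of the hairpin, was listed at 530 FPKM in control cells and 69.0 FPKM after knockdown. The fibroblast label fitted the collagen genes, with *Col1a1* at 1258 and 856 FPKM, but *Dcn* (0.316 and 2.42 FPKM) and *Thy1* (0.303 and 1.39 FPKM) were low. Of 12 fibroblast markers, 10 averaged 1 FPKM or more, 2 higher and 8 lower, beside 48.7% higher among all genes with such an average. *Dcn*, 1 of the 2 higher, reached this average only through the knockdown library. The study lists *Dcn* and *Thy1* among its raised genes from these libraries. The summed level of the 12 was 7395 FPKM in control cells and 5385 FPKM after knockdown. In bulk RNA, fewer cells of a type and less RNA per cell cannot be told apart. A value of 0 is not proof of absence, because *Ywhaz*, a gene that nearly all cells use, was listed at 0 in both libraries as well.

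*Cebpb*, *Cebpd* and the adiponectin receptors were well expressed in NSFs, whereas the adipokines *Adipoq* and *Lep* were at or near 0. After *β-catenin* knockdown, *Lpl* was 2.28-fold higher, *Cebpb* and *Cebpd* were each about 1.4-fold higher (1.38-fold and 1.37-fold), and *Cebpg* and *Adipor1* were nearly level. Of the 9 genes with an entry, 6 averaged 1 FPKM or more. Among these 6, none was more than 4-fold higher or lower, the threshold of the study, and 1 was more than 2-fold higher. Of all 13097 genes with an average of 1 FPKM or more, 0.680% were more than 4-fold higher, 0.206% more than 4-fold lower, 3.27% more than 2-fold higher and 2.05% more than 2-fold lower. In direction, 5 of the 6 were higher and 1 was lower, where 48.7% of all genes were higher, and the median log2 fold change was 0.38 against −0.01 over all genes.

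**Figure D1:**
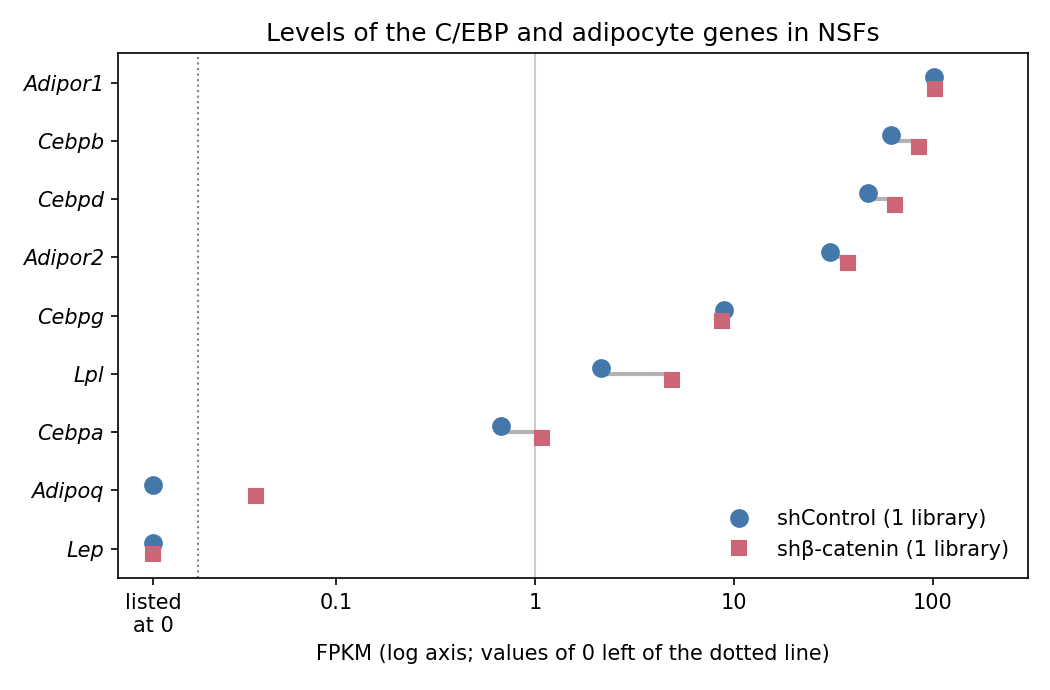
Level of each gene in the shControl library (circles) and the *shβ-catenin* library (squares) in FPKM on a log axis, with values of 0 drawn left of the dotted line. *Adipor1* lies highest at 101 and 102 FPKM, the gap between the libraries is widest for *Lpl* among genes above 0 in both, and *Lep* is listed at 0 in both.

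The order of the levels was the same in both libraries. *Adipor1* was the highest, followed by *Cebpb*, *Cebpd*, *Adipor2*, *Cebpg*, *Lpl* and *Cebpa*, with *Adipoq* and *Lep* last. With 1 library each, no spread is known by which neighbors in this order could be separated.

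*Cebpb*, which encodes C/EBPβ, was listed at 61.6 FPKM in control cells and 85.2 FPKM after knockdown. Its log2 fold change of 0.47 lay above 88.7% of all genes with an average of 1 FPKM or more, and its mean level above 90.7% of them. *Cebpd*, the gene of C/EBPδ, was listed at 47.2 and 64.6 FPKM, a log2 fold change of 0.45 that lay above 88.2% of genes. Both early C/EBPs were thus higher by nearly the same factor, and the ratio of *Cebpb* to *Cebpd* was 1.30 in control cells and 1.32 after knockdown. C/EBPβ is made as longer activating and shorter inhibitory proteins from a single mRNA, which FPKM values do not separate.

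*Cebpg* encodes C/EBPγ, a short member without an activation domain that pairs with other leucine zipper factors, ATF4 among them. It was listed at 8.90 FPKM in control cells and 8.73 FPKM after knockdown, a log2 fold change of −0.03 that turned to 0.05 when the libraries were scaled to their upper quartile. *Cebpg* was thus level between the libraries, and the ratio of *Cebpb* to *Cebpg* was 6.92 in control cells and 9.76 after knockdown. Whether these ratios differ beyond library error was not tested.

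*Cebpa*, the gene of C/EBPα, the factor of late adipogenesis, was listed at 0.676 FPKM in control cells and 1.08 FPKM after knockdown, 1.59-fold higher. Its mean of 0.876 FPKM fell under the filter of 1 FPKM. The ratio of its values equals that of 34 to 45 whole fragments at the relative depth of the libraries, as the smallest pair. At that pair the exact Clopper-Pearson 95% interval for the fold of knockdown over control ran from 0.997 to 2.56, which includes no difference by a narrow margin, and at 68 and 90 fragments from 1.15 to 2.21. Whether this pair or a multiple of it was counted is not known, and at a total of 79 the match itself may be accidental. Such intervals hold counting error but no difference between cultures or copies made by PCR. In both libraries *Cebpa* was far below the early C/EBPs. *Cebpb* was listed at 91.1 times the level of *Cebpa* in control cells and 79.2 times after knockdown.

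Summed over *Cebpa*, *Cebpb*, *Cebpd* and *Cebpg*, the family was at 118 FPKM in control cells and 160 FPKM after knockdown. *Cebpb* made up 52.0% and 53.4% of this sum, *Cebpd* 39.9% and 40.5%, *Cebpg* 7.51% and 5.47%, and *Cebpa* 0.571% and 0.674%. *Cebpe*, the gene of the myeloid C/EBPε, was listed at 0 in both libraries and added nothing. The summed level was thus higher after knockdown, and *Cebpb* and *Cebpd* made up most of it in both libraries.

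**Figure D2:**
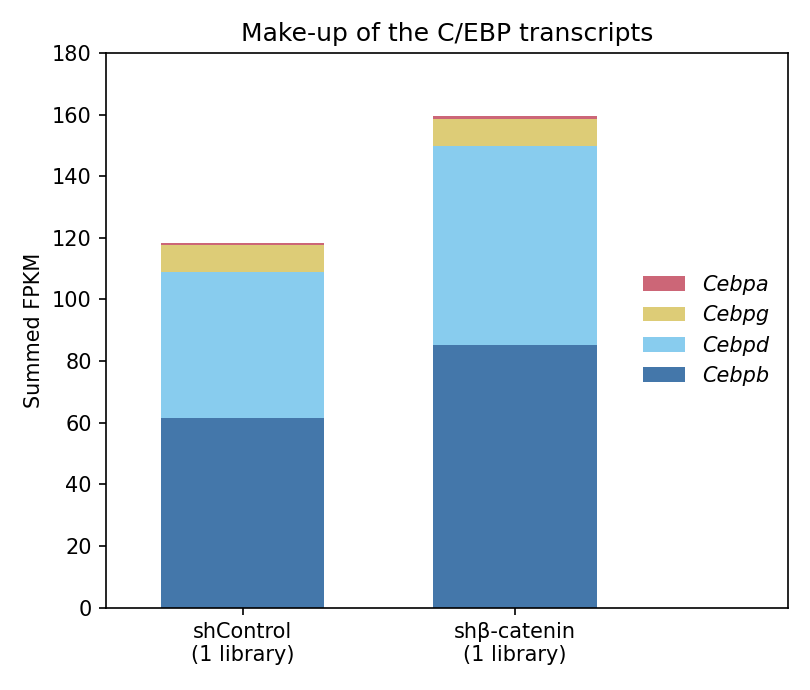
Summed FPKM of *Cebpb*, *Cebpd*, *Cebpg* and *Cebpa* in 1 shControl and 1 *shβ-catenin* library, stacked by gene. The sum is 118 FPKM against 160 FPKM, and *Cebpb* with *Cebpd* takes 91.9% and 93.9% of it.

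Of 16 other genes that carry the family name or pair with its members, 10 averaged 1 FPKM or more. Of these 10, 2 were higher and 8 lower, beside 48.7% of all genes higher, and the median log2 fold change was −0.10. Both *Cebpz* (−0.32) and *Cebpzos* (−0.17), counted among the 8 lower, share the name but are not leucine zipper factors. *Atf5*, a stress-responsive factor that in mouse cells acts with C/EBPβ in adipogenesis, was 2.86-fold lower, at 134 and 46.6 FPKM. It was the only one of the 10 past 2-fold, beside 2.05% of all genes more than 2-fold lower. *Atf4*, the partner of C/EBPγ, was listed at 265 and 263 FPKM. *Tef*, a clock-controlled factor of the related PAR family, was 1.55-fold lower (13.1 and 8.45 FPKM), whereas its relatives *Nfil3*, a repressor, and *Dbp*, an activator, were 1.28-fold and 1.27-fold higher.

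*Lpl* encodes lipoprotein lipase, the secreted enzyme that frees fatty acids from the triglycerides of lipoproteins. It was listed at 2.14 FPKM in control cells and 4.87 FPKM after knockdown. The log2 fold change of 1.15 lay above 97.5% of all genes, although the level of *Lpl* was low, above 21.4% of them. Of 3756 genes with a mean of 3 to 10 FPKM, where *Lpl* lies, 2.90% were more than 2-fold higher. With a pseudocount of 1 FPKM the log2 fold change was 0.90, no longer past 2-fold. Its ratio matched no pair of whole fragments up to a total of 100, so no counting interval is given.

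**Figure D3:**
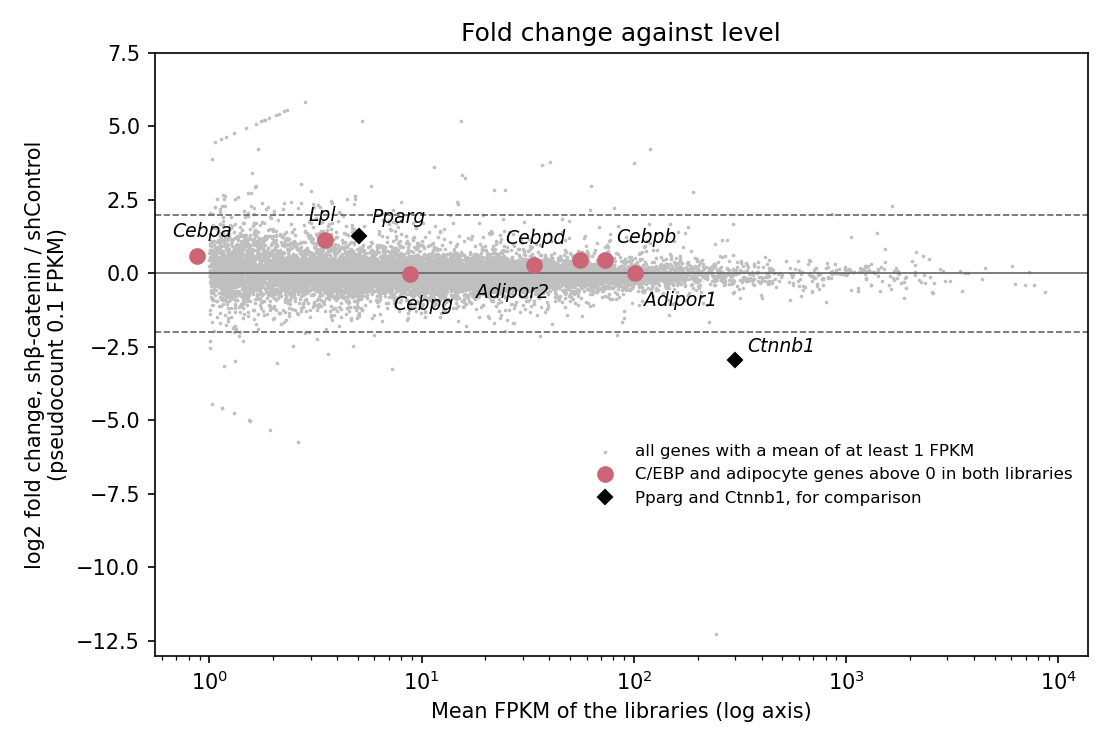
Log2 fold change of *shβ-catenin* over shControl against mean FPKM (log axis) for 13097 genes with an average of 1 FPKM or more (gray), the C/EBP and adipocyte genes above 0 in both libraries (large circles, *Cebpa* below the filter), *Pparg* and *Ctnnb1* (diamonds). Dashed lines mark 4-fold, which none of the circles reaches, and *Lpl* at 1.15 is the highest of them.

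*Lpl* is also made by macrophages, so markers of other cells were measured beside it. Of 14 macrophage markers, 5 averaged 1 FPKM or more and all 5 were more than 2-fold higher, beside 3.27% of all genes. Among the 5, *Msr1* and *Fcer1g* passed the filter only through the knockdown library. The study also names *Msr1* among its raised genes from these libraries, so the count cannot serve as independent evidence of a direction. Of 6 markers above 0 but below the filter, only *Tyrobp* was lower, at 0.828 and 0.498 FPKM. The summed level of the 14 was 73.4 FPKM in control cells and 213 FPKM after knockdown. Most of this sum came from *Lyz*, the lysozyme gene (41.5 and 127 FPKM), *Cd14*, a receptor of bacterial lipopolysaccharide (17.4 and 49.9 FPKM), and *Cd68* (11.9 and 31.1 FPKM). The leukocyte antigen *Ptprc*, with *Cd163* and *Marco*, was listed at 0 in both libraries, and *Csf1r*, the receptor that macrophages need, at 0.0228 and 0.0547 FPKM. Of 11 endothelial markers, 3 averaged 1 FPKM or more and were higher, beside 48.7% of all genes. Among these 3, *Pecam1* (0.275 and 2.08 FPKM) passed the filter only through the knockdown library. The sum of the 11 was 17.4 and 32.7 FPKM, and *Tek*, *Tie1* and *Emcn* were at 0 in both. Of 13 keratinocyte markers, 2 averaged 1 FPKM or more and were lower, *Krt18* at 22.6 and 7.21 FPKM and *Dsp* at 17.6 and 14.7 FPKM. The sum of the 13 was 40.2 and 22.3 FPKM. Of 8 hematopoietic and mast cell markers, 0 averaged 1 FPKM or more. The part of any of these cell types in the level of *Lpl* was not tested.

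Genes that fold, move, activate or inhibit lipoprotein lipase, with related lipases, were spread around no difference. Of 22 listed, 14 averaged 1 FPKM or more, of which 9 were higher and 5 lower, beside 48.7% of all genes higher. The median log2 fold change was 0.10. *Lmf1*, needed to fold the enzyme, was listed at 2.41 and 2.31 FPKM, and *Sel1l*, needed for its exit from the endoplasmic reticulum, at 56.5 and 56.2 FPKM. *Angptl4*, a secreted inhibitor of the enzyme, was abundant at 195 and 205 FPKM, well above *Lpl* itself in both libraries. All 3 were thus close to level between the libraries. *Gpihbp1*, which carries the enzyme to the capillary lumen, and *Apoc2*, its activator, were listed at 0 in both. Largest among the 14 were *Pcsk6*, a proprotein convertase, at 0.749 and 2.78 FPKM (3.71-fold higher), *Vldlr*, a lipoprotein receptor, at 1.84-fold higher, *Pcsk5*, another convertase, at 1.87-fold lower (1.64 and 0.877 FPKM), and *Lipg*, the endothelial lipase, at 1.62-fold higher.

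*Fabp4* encodes the fatty acid-binding protein of adipocytes and macrophages. No entry of either library carried this symbol, so its level is not analysed here. Between *Fabp5* and *Fabp12*, RefSeq for a later NMR assembly places 3 protein-coding genes named only by locus number. Of these, 2 had an entry, LOC101706814 at 0 and 0.407 FPKM and LOC101707545 at 0 in both libraries. They were looked up after the values were seen, and none of the sources used here names either of them. Of the fatty acid-binding proteins and related carriers, 9 of 13 listed had an entry and 3 an average of 1 FPKM or more. *Fabp5*, the epidermal form, was listed at 28.3 and 25.8 FPKM, and *Fabp3*, the form of heart muscle, at 16.8 and 20.6 FPKM. *Fabp5* and *Fabp3* were thus the measured members of the Fabp family that averaged 1 FPKM or more, the first 1.10-fold lower and the second 1.22-fold higher after knockdown.

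*Adipoq*, the gene of the adipokine adiponectin, was listed at 0 in control cells and 0.0395 FPKM after knockdown, so no fold is given. Its receptors were among the better expressed genes of the fibroblasts. *Adipor1*, whose product in mouse tissues acts mainly through the kinase AMPK, was listed at 101 and 102 FPKM, a log2 fold change of 0.02 and a level above 93.4% of genes. *Adipor2*, tied in mouse liver to PPARα, was listed at 30.4 and 37.4 FPKM, a log2 fold change of 0.30 that lay above 81.4% of genes. The ratio of *Adipor1* to *Adipor2* was 3.33 in control cells and 2.73 after knockdown, so that *Adipor1* was the main receptor transcript in both.

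Of 22 listed genes of adiponectin assembly and signaling, with relatives of the receptors, all had an entry and 19 an average of 1 FPKM or more. Of these 19, 9 were higher and 10 lower, beside 48.7% of all genes higher. The median log2 fold change was −0.03, and 0.05 with upper quartile scaling. *Appl1*, the adaptor that binds both receptors, was listed at 22.9 and 22.4 FPKM, and *Prkaa1*, a catalytic subunit of AMPK, at 14.3 and 15.5 FPKM. The 2 genes past 2-fold went opposite ways, beside 3.27% of all genes more than 2-fold higher and 2.05% more than 2-fold lower. *Cdh13*, which encodes T-cadherin, a surface protein that binds adiponectin multimers, was 2.10-fold lower (73.8 and 35.1 FPKM), and *Ero1a*, an oxidase of the endoplasmic reticulum that helps adiponectin leave the cell, was 2.14-fold higher (98.7 and 211 FPKM). *Paqr6* and *Paqr4*, relatives of the adiponectin receptors, were 1.79-fold and 1.36-fold lower.

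*Lep*, the gene of leptin, was listed at 0 in both libraries. *Lepr*, the leptin receptor, lay below the filter at 0.0254 FPKM in control cells and 0.259 FPKM after knockdown, and was singled out after its values were seen. The ratio of its values matched no pair of whole fragments up to a total of 100, so the size of the difference has no interval. Of 12 genes of leptin signaling, 9 averaged 1 FPKM or more, 5 higher and 4 lower, beside 48.7% of all genes higher. None of the 9 was past 2-fold, beside 3.27% of all genes more than 2-fold higher and 2.05% more than 2-fold lower. Their median log2 fold change was 0.08. *Leprot*, transcribed from the leptin receptor locus in other mammals and known there to limit the receptor at the cell surface, was 1.52-fold lower (76.8 and 50.5 FPKM). *Jak2*, the kinase bound to the receptor, was 1.38-fold higher (8.36 and 11.6 FPKM), *Socs3*, its feedback inhibitor, 1.30-fold higher, and *Irs1*, an adaptor shared with insulin signaling, 1.27-fold lower. Downstream genes of leptin were thus expressed while the ligand was at 0 and the receptor near it.

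*Pparg*, the partner of C/EBPα in adipogenesis, was listed at 2.92 FPKM in control cells and 7.28 FPKM after knockdown, 2.49-fold higher. Its level was 4.32 times that of *Cebpa* in control cells and 6.76 times after knockdown. Of 20 listed activators of adipogenesis, 17 had an entry and 12 an average of 1 FPKM or more. Of these 12, 5 were higher and 7 lower, beside 48.7% of all genes higher, and the median log2 fold change was −0.09. *Pparg* was the only one of the 12 past 2-fold, beside 3.27% of all genes more than 2-fold higher and 2.05% more than 2-fold lower. *Srebf1*, a driver of lipid synthesis, was 1.26-fold higher (30.5 and 38.3 FPKM), *Klf9*, a Krüppel-like factor that acts on *Pparg* in mouse cells, 1.27-fold lower (9.35 and 7.35 FPKM), and *Egr2*, which induces *Cebpb* in mouse preadipocytes, 1.24-fold lower (5.79 and 4.68 FPKM).

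The largest differences among inhibitors of adipogenesis averaging 1 FPKM or more were lower levels after knockdown. Of 21 listed, 17 had such an average, of which 5 were higher and 12 lower, beside 48.7% of all genes higher. The median log2 fold change of the 17 was −0.11. Those more than 2-fold lower were *Wnt10b*, 13.6-fold lower at 2.18 and 0.161 FPKM, *Znf521*, a zinc finger protein that in mouse blocks early adipocyte commitment, 2.70-fold lower at 3.84 and 1.42 FPKM, and *Klf2*, a repressor of *Pparg* in mouse preadipocytes, 2.16-fold lower at 30.7 and 14.2 FPKM. That is 3 of 17 more than 2-fold lower and 0 more than 2-fold higher, beside 2.05% and 3.27% of all genes. Here *Wnt10b* passed the filter only through the shControl library, and the study lists it among its lowered genes from these libraries. The count therefore cannot serve as independent evidence of a direction. *Trib3*, a pseudokinase that restrains adipogenesis, was 1.85-fold lower at 18.9 and 10.2 FPKM. Not all went this way. *Wnt5a*, a Wnt ligand of the non-canonical kind, was listed at 18.1 and 31.2 FPKM, and *Tgfb1*, a growth factor that blocks adipogenesis in mouse cells, at 138 and 194 FPKM.

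Lipid genes of mature adipocytes were higher and lower in similar number. Of 30 listed, 28 had an entry, 18 an average of 1 FPKM or more, 8 were higher and 10 lower, and none was past 2-fold, beside 48.7% of all genes higher by any amount and 3.27% more than 2-fold higher. Their median log2 fold change was −0.0043, and 0.07 with upper quartile scaling. *Plin1*, the lipid droplet coat of adipocytes, *Cidea*, *Slc2a4* (the insulin-regulated glucose transporter), *Pck1*, *Aqp7* and *Ucp1* were listed at 0 in both libraries. *Acly*, which makes cytosolic acetyl-CoA for lipid synthesis, was 1.87-fold lower (226 and 121 FPKM), *Me1*, a source of NADPH, 1.69-fold lower (22.6 and 13.4 FPKM), *Cidec*, of lipid droplet fusion, 1.57-fold lower (1.46 and 0.929 FPKM), and *Agpat2*, an acyltransferase of triglyceride synthesis, 1.33-fold lower. Of 12 markers of adipocytes, 6 were at 0 in both libraries, and the summed level of the list was 14.5 FPKM in control cells and 19.3 FPKM after knockdown, mostly from *Lipe*, *Pparg* and *Cfd*. NSFs thus held transcripts of early adipogenic factors with *Adipoq*, *Lep*, *Plin1* and other defining genes of mature adipocytes at or near 0, in the *shβ-catenin* library as in shControl.

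Of 23 other genes of secreted proteins counted among adipokines, 14 averaged 1 FPKM or more. Of these 14, 9 were higher and 5 lower, beside 48.7% of all genes higher, and the median log2 fold change was 0.22. The 3 past 2-fold were all higher, beside 3.27% of all genes more than 2-fold higher and 2.05% more than 2-fold lower. Among them, *Apln*, the gene of the peptide apelin, was listed at 54.5 and 129 FPKM, and the cytokine *Il6* at 1.36 and 4.69 FPKM. *C1qtnf3*, which encodes a secreted relative of adiponectin, was 1.86-fold lower at 225 and 121 FPKM. None of these is specific to adipocytes, and *Retn*, the gene of the adipokine resistin, was listed at 0 in both libraries.

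**Figure D4:**
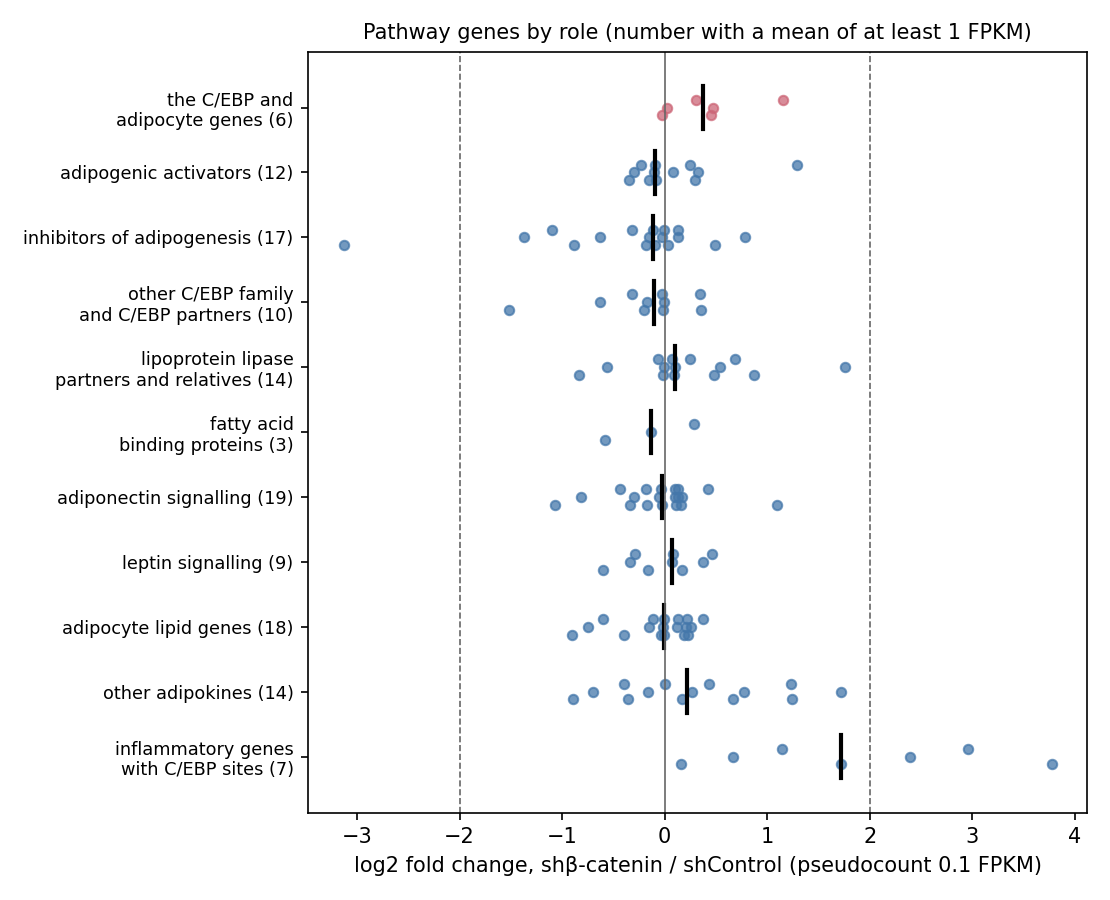
Log2 fold change of *shβ-catenin* over shControl for genes with an average of 1 FPKM or more (points, number in brackets) in the C/EBP and adipocyte genes (top) and in 10 lists of related genes, with the median as a black bar and dashed lines at 4-fold. The medians lie between −0.13 (fatty acid-binding proteins) and 0.38 except for the inflammatory genes with C/EBP sites at 1.72, and the point farthest to the left is *Wnt10b*.

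Inflammatory genes whose promoters hold C/EBP sites in mouse or human were the list with the highest median. Of 18 listed, 10 had an entry and 7 an average of 1 FPKM or more. All 7 were higher, beside 48.7% of all genes. Of the 7, 5 were more than 2-fold and 3 more than 4-fold higher, beside 3.27% and 0.680% of all genes. The median log2 fold change of the 7 was 1.72. *Csf3*, above 0 but under the filter, was lower at 0.266 and 0.174 FPKM, and *Il1rn* and *Lbp* were listed at 0 in both libraries. *Cp*, which encodes the copper protein ceruloplasmin, was 7.82-fold higher at 14.2 and 111 FPKM. *Il1b*, the gene of interleukin 1β, was 13.9-fold higher at 5.42 and 75.6 FPKM, and *Ptgs2*, the gene of cyclooxygenase 2, 5.79-fold higher at 0.801 and 4.63 FPKM, past the filter only through the knockdown library. The study singled out *Il1b* and *Ptgs2* on these libraries, and on that account the list cannot serve as independent evidence of its direction. Without *Il1b* and *Ptgs2* the median was 1.14. That value still includes *Cp*, which the study also lists among its raised genes from these libraries. *C3*, the central complement protein, was listed at 48.4 and 107 FPKM. For 6 of the 7 the difference was larger than the 1.38-fold and 1.37-fold of *Cebpb* and *Cebpd*, the exception being *Hp*, the gene of haptoglobin, at 4.11 and 4.62 FPKM, and binding of C/EBPs to them was not measured. NF-κB acts on most of the same genes. The 5 macrophage markers past the filter given with *Lpl*, the study's raised gene *Msr1* among them, moved the same way. Their part in these differences was not tested.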

How the data were processed

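From stranded mRNA libraries the authors sequenced paired ends of 75 bp, mapped them to the NMR genome (GCA_000247695.1) with TopHat2 2.0.13, Bowtie2 2.2.3 and SAMtools 0.1.19 and computed the deposited FPKM values with Cufflinks 2.2.1. The gene annotation, the depth and any filter are not given in the sources used here. The 1 shControl and 1 *shβ-catenin* library list 37520 genes each, with FPKM sums of 609786 and 591905.

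Values were used as deposited. Genes were matched by symbol regardless of case, and counts and medians of lists took genes averaging 1 FPKM or more. The 10 genes and all lists were chosen with earlier results of these data known. The text names the 10 genes, *Ctnnb1*, *Pparg* and up to 4 genes per list with the largest absolute fold change. Other genes, such as *Atf4*, *Lmf1*, *Sel1l*, *Angptl4*, *Appl1*, *Prkaa1*, *Lepr*, *Wnt5a*, *Tgfb1*, *C3*, *Hp* and genes listed at 0, were chosen after their values were seen. Markers named in the text were also chosen after their values were seen. Some genes that this rule would name are not reported here.

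The deposited tables hold no read counts. The commonest fold of knockdown over control, 1.20, was shared by 811 of 5239 genes that lay under 1 FPKM in each library, and was taken to mark equal numbers of fragments. Whole fragments were the smallest pair without a common factor that gave a ratio within 0.002%. Totals up to 60 were searched first, and the limit was raised to 100 after *Cebpa* was seen to need 79. Of 5649 genes with a mean under 1 FPKM and above 0 in both, 65.6% then had whole fragments, against 1.66% with the factor shifted by 1.4%. At the limit of 60 these shares were already 64.2% and 0.655%. The contrast thus came mostly from totals up to 60 and says little about a match at 79. Alternatives were pseudocounts of 0.01 and 1, the median ratio or the upper quartile as scaling (log2 shifts of 0.02 and 0.08), a 2-fold threshold, no filter, an average of 5 FPKM or more and symbols with a single entry. The steps were tested on simulated data. Python 3.11.15, scipy 1.17.1, pandas 2.3.3, matplotlib 3.10.9 and numpy 2.4.6 were used.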

Additional observations from a re-analysis of the deposited data

How the results depend on the processing

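With 1 library per condition no library could be left out and no spread is known. A log2 fold change or median was therefore called moved when it shifted by 0.1 or more. The 124 values under the alternatives also hold counts of genes past a threshold and interval bounds of *Cebpa*, not log2 values. Of the 124, 105 were unchanged or shifted by less with the same sign, 9 moved and 10 changed sign. With a pseudocount of 1 FPKM the log2 fold change was 0.31 for *Cebpa*, 0.90 for *Lpl* and 1.27 for the median of the inflammatory genes with C/EBP sites. That median was 2.05 at a mean of at least 5 FPKM, 1.43 without the filter and 1.14 without *Il1b* and *Ptgs2* (chosen once the values were known). With upper quartile scaling *Cebpg* stood at 0.051, the adiponectin list at 0.049 and the adipocyte lipid genes at 0.072. The lipid genes stood at 0.011 with median ratio scaling, 0.12 at a mean of at least 5 FPKM and 0.059 without the filter, and the adiponectin list at 0.13 and 0.10 under the latter 2. Without the filter the activators of adipogenesis stood at 0.0021 and the fatty acid-binding proteins at 0.29. These medians lie close to 0 or rest on few genes, and no direction is read from them. At a 2-fold threshold 1 gene, *Lpl*, was past it, against 0 at 4-fold. At the doubled fragments the interval of *Cebpa* ran from 1.15 to 2.21. The absolute depth of the libraries is unknown, and of the 10 genes only *Cebpa* was given a counting interval. No paired analysis was possible because each condition has 1 library and the labels carry no replicate numbers.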

Other observations

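Several genes around the adipogenic program lay under a mean of 1 FPKM and enter none of the counts, and they were singled out after their values were seen. *Nr1h3*, the gene of the oxysterol receptor LXRα, stood at 0.355 FPKM in control cells and 0.792 FPKM after knockdown. *Znf423*, which commits mouse mesenchymal cells to the adipocyte lineage, was listed at 0.122 and 0.251 FPKM, and *Zbtb16*, another zinc finger factor, at 0 and 0.104 FPKM. *Klf15*, the remaining listed activator above 0 under that mean, was lower at 0.414 and 0.362 FPKM. Among the carriers of small lipids, *Crabp2*, which brings retinoic acid to its receptor, was listed at 0 and 0.414 FPKM, and *Fabp7*, the fatty acid-binding protein of brain, at 0.275 and 0 FPKM. These values have no replicate.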
